A study of Oryza sativa with 2 samples.

Results

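The loci described here encode the enzymes of the general phenylpropanoid pathway in rice, namely phenylalanine ammonia-lyase (PAL), cinnamate 4-hydroxylase (C4H) and 4-coumarate:CoA ligase (4CL). They were chosen as a list of locus identifiers, with no threshold on a measured value but with earlier results of these data known. All 10 listed loci had a row in the expression table, out of 26715 loci in all, and comprised 6 PAL, 1 C4H and 3 4CL loci. RNA from leaves was compared between wild-type *japonica* rice cv. Zhonghua11 and the white leaf and panicle mutant *wlp2s*, with 1 library per genotype. The mutant came from a Zhonghua11 population treated with ethyl methanesulfonate (EMS), a chemical mutagen, and the name of its allele is taken from the study's methods. Seedlings of both genotypes were raised on MS-based medium and kept at a constant 32 °C with equal light and dark periods. Seedling age and the number of plants pooled in a library are not given in the sources used here. The mutant library represents a single EMS line, so the *wlp2* mutation and any other change carried by that line cannot be told apart.

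PAL removes the amino group of phenylalanine to give cinnamate and thereby draws carbon from primary metabolism. C4H, a cytochrome P450 that receives electrons from P450 reductase, hydroxylates cinnamate to *p*-coumarate, and 4CL joins *p*-coumarate to coenzyme A. In grass leaves *p*-coumaroyl-CoA is used for lignin, wall-bound hydroxycinnamates, flavonoids and defence compounds.

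The libraries held 9080323 counts in wild-type and 9327778 in the mutant. Levels are given as RPKM (reads scaled to the length of the transcript model and to the library's total count), summed over the models of a locus. Ratios are counts in the mutant over counts in wild-type, each scaled to its library's total, with an exact (Clopper-Pearson) 95% interval in brackets. The interval covers counting error only. With 1 library per genotype the spread within a genotype is unknown, no test of the genotypes was made, and no difference has a replicate check. Leaf markers were present in both libraries, with 4 of 4 Rubisco small chain loci and 14 of 14 light-harvesting loci past an RPKM of 1. Their summed levels were 7424 and 7476 RPKM for Rubisco small chains and 12099 and 9834 RPKM for light-harvesting proteins, in wild-type and mutant respectively. *WLP2* (LOC_Os01g63220, annotated as fructokinase-like 1) stood at 6.61 RPKM in wild-type against 9.10 RPKM in *wlp2s*, a ratio of 1.38 (1.09 to 1.74). The mutant allele carries a point mutation, and the interval of the *WLP2* transcript lay above 1. Its level therefore gives no check of the genotype labels, which have no other check here. In bulk leaf RNA, fewer cells of a type and less RNA per cell cannot be told apart.

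PAL was the step with the highest summed RPKM and the only one whose members summed to a ratio with an interval above 1, at 1.09 (1.06 to 1.11). The C4H ratio was nearly the same on fewer counts, at 1.08 (0.972 to 1.21), so the intervals do not separate these steps. The PAL loci with the highest levels had nearly the same level in both genotypes, whereas the 4 less abundant PAL members were between 1.40- and 1.72-fold higher in *wlp2s*. C4H and the main 4CL locus were each 1.08-fold of wild-type, and a 4CL locus of low level, LOC_Os02g46970, was 19.9-fold lower. By a rule of size, a difference of log2(RPKM + 1) of at least 1, none of the 10 members was higher in *wlp2s* and 1 was lower. The table holds 18639 loci that reach an RPKM of 1 in one or both libraries, and of these 1.79% were higher and 1.01% were lower by this rule. All 10 members passed that filter. The 95% counting interval of the ratio lay above 1 for 5 members and below 1 for 2, against 16.1% and 15.4% of all loci tested. Whether an interval excludes 1 depends on the counts of a locus as well as on its ratio. These shares were not matched for counts, here or for the lists below. The median difference of the members was 0.11 on the log2 scale, and that of all loci tested was 0.00. The difference was above 0 in 7 members and below 0 in 3.

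**Figure D1:**
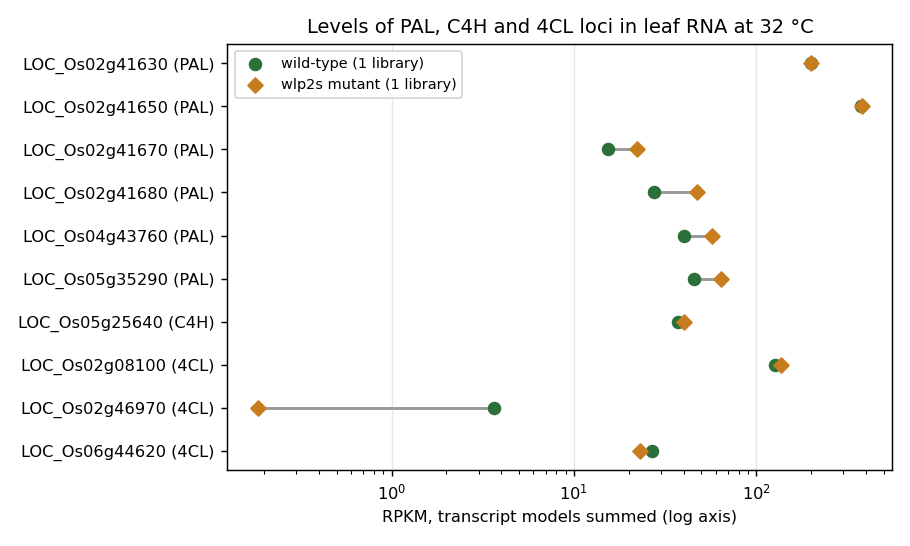
Level of each member as RPKM on a log axis, with 1 point per library (circles wild-type, diamonds *wlp2s*) and a grey line joining the pair. The points of LOC_Os02g41630 and LOC_Os02g41650 lie on each other near 200 and 380 RPKM, and LOC_Os02g46970 spans 3.66 to 0.184 RPKM.

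The 4 PAL members on chromosome 2 carry neighbouring locus numbers and fell into a pair with high and a pair with low levels. LOC_Os02g41650, annotated like all PAL members as PHE ammonia lyase 1, had 378 RPKM (8838 counts) in wild-type and 381 RPKM (9160 counts) in *wlp2s*, a ratio of 1.01 (0.980 to 1.04). LOC_Os02g41630 had 200.5 RPKM (4759 counts) in wild-type and 199 RPKM (4851 counts) in *wlp2s*, a ratio of 0.992 (0.953 to 1.03). Both intervals include 1. These loci ranked 153 and 318 by RPKM among all loci in wild-type, and 156 and 345 in *wlp2s*. LOC_Os02g41680 had 27.5 RPKM (633 counts) in wild-type and 47.3 RPKM (1119 counts) in *wlp2s*, a ratio of 1.72 (1.56 to 1.90). LOC_Os02g41670 had 15.3 RPKM (359 counts) in wild-type and 22.2 RPKM (537 counts) in *wlp2s*, a ratio of 1.45 (1.27 to 1.67). Both intervals lay above 1. They treat the assigned counts, which held fractions, as whole and independent reads. The log2 difference of LOC_Os02g41680, 0.76, was the largest among the members that were higher, and 3.72% of all loci tested had a larger one. For LOC_Os02g41670 the difference was 0.51, and 8.41% of loci had a larger one.

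The remaining PAL members lie on chromosomes 4 and 5 and resembled each other in level and in ratio. LOC_Os04g43760 had 40.1 RPKM (847 counts) in wild-type and 57.4 RPKM (1221 counts) in *wlp2s*, a ratio of 1.40 (1.28 to 1.53). LOC_Os05g35290 had 45.6 RPKM (1042 counts) in wild-type and 64.4 RPKM (1510 counts) in *wlp2s*, a ratio of 1.41 (1.30 to 1.53). Both were higher in the mutant library, with log2 differences of 0.51 and 0.49, which 8.51% and 9.14% of loci tested exceeded. Summed, the PAL members off chromosome 2 gave a ratio of 1.41 (1.33 to 1.49) and those on chromosome 2 a ratio of 1.05 (1.02 to 1.07).

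**Figure D2:**
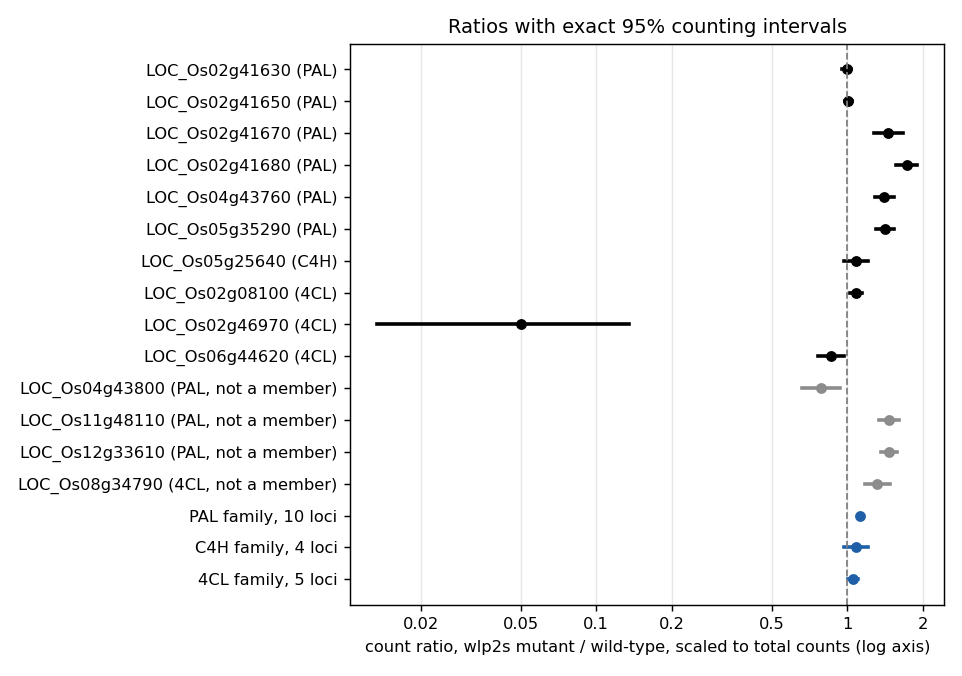
Count ratio of *wlp2s* to wild-type, scaled to total counts, on a log axis, with bars for the exact 95% counting interval. Black marks the members, grey the other loci of the same families with an RPKM of at least 5, and blue the family sums. The PAL members other than LOC_Os02g41630 and LOC_Os02g41650 lie between 1.40 and 1.72, and LOC_Os02g46970 lies far to the left of the dashed line at 1.

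Counts of the PAL loci were in part fractions, as when reads that match several copies are divided between them, and this limits what the value of a single locus means. The sequences of the copies were not compared. The counts of all 10 members held fractions in at least 1 library, as did those of 7274 of the 18639 loci tested. Fractions at the PAL members had denominators that contain the factor 7, whereas no prime factor above 3 occurred at the C4H and 4CL members. The annotation names 10 PAL loci in all, and the counts of these 10 added up to whole numbers in both libraries, 18715 in wild-type and 21541 in *wlp2s* (to within 0.001). A sum over the family is unaffected by any division of reads among its loci, and it gave a ratio of 1.12 (1.10 to 1.14). In RPKM the family stood at 815 in wild-type and 919 in *wlp2s*.

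By the counts as assigned, the excess of PAL transcripts in *wlp2s* lay outside the pair of highest loci. Reads may be divided between copies, so the placing of this excess among the loci was not tested. That pair together had a ratio of 1.00 (0.980 to 1.03), and the other 4 members together had 1.48 (1.41 to 1.55), a grouping made after the values were seen. As a share of the family's RPKM, the pair took 71.0% in wild-type and 63.1% in *wlp2s*, while LOC_Os02g41680 took 3.37% and 5.14%. The 4 PAL loci that are not members summed to a ratio of 1.37 (1.30 to 1.45). Among them, LOC_Os12g33610 had 55.3 RPKM in wild-type and 80.6 RPKM in *wlp2s*, a ratio of 1.46 (1.35 to 1.57), and LOC_Os11g48110 had 39.3 and 57.6 RPKM, a ratio of 1.47 (1.34 to 1.61). LOC_Os04g43800, close in number to LOC_Os04g43760, went the other way with 12.2 and 9.56 RPKM, a ratio of 0.783 (0.659 to 0.934). Neighbouring PAL loci on chromosome 4 thus differed in direction by their assigned counts. LOC_Os08g21670, named after its values were seen, had 6.67 counts in wild-type and 0 in *wlp2s*. This is 2.28-fold lower with the 0 replaced by a floor of 3 counts. The exact interval, which also takes in the counting error of wild-type, reaches to 1.48-fold lower.

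**Figure D3:**
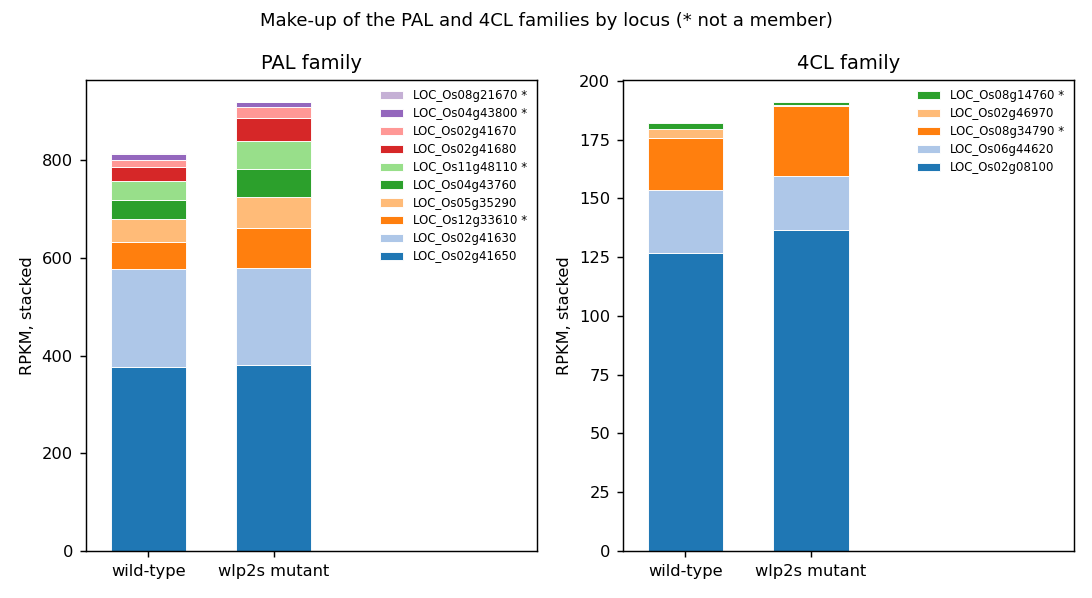
RPKM of the loci of the PAL family (left) and the 4CL family (right), stacked from 0, with 1 bar per library and an asterisk for loci that are not members. The lower pair of PAL blocks is of equal height in both libraries, at 578 and 580 RPKM, and the blocks above it add up to 237 RPKM in wild-type and 339 RPKM in *wlp2s*.

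The shares of the transcript models in the RPKM of their locus differed little between the genotypes, and by most at LOC_Os04g43760. Model counts were in part fractions, as when reads that match several models are divided between them. These shares therefore need not measure the use of each model. The 3 models of LOC_Os02g41650 took 33.7%, 35.7% and 30.6% of its RPKM in wild-type and 33.5%, 36.0% and 30.5% in *wlp2s*. At LOC_Os04g43760 the first model took 79.4% in wild-type and 75.4% in *wlp2s*, with ratios of 1.36 (1.23 to 1.495) for the first and 1.71 (1.34 to 2.18) for the second. At the 4CL locus LOC_Os06g44620 the first model took 77.5% in wild-type and 76.9% in *wlp2s*. Of the 10 members, 7 had 1 model.

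The second step had a ratio close to that of the summed PAL members, on fewer counts. LOC_Os05g25640, the C4H member, had 37.3 RPKM (622.5 counts) in wild-type and 40.4 RPKM (693 counts) in *wlp2s*, a ratio of 1.08 (0.972 to 1.21) whose interval includes 1. This locus held 92.6% of the RPKM of the 4 loci annotated as cinnamate-4-hydroxylase in wild-type and 93.3% in *wlp2s*. The C4H family counts, 662 and 735, were whole, and their ratio was 1.08 (0.972 to 1.20). The other C4H loci, LOC_Os01g60450 (37.5 and 31 counts), LOC_Os02g26770 (1 and 4 counts) and LOC_Os02g26810 (1 and 7 counts), were of low level in both libraries. Of the 3 loci annotated as P450 reductase 2, the electron donor of such enzymes, LOC_Os09g38620 had 24.95 RPKM in wild-type and 17.2 RPKM in *wlp2s*, a ratio of 0.691 (0.610 to 0.783). The more abundant LOC_Os08g14570 (143 and 141 RPKM) and LOC_Os04g55960 (65.1 and 61.0 RPKM) had intervals that include 1. None of the 3 passed the rule of size, their median difference was -0.09 and their sum had a ratio of 0.939 (0.904 to 0.975).

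At the third step the 4CL loci went in different directions. LOC_Os02g08100, annotated as 4-coumarate:CoA ligase 2, had 127 RPKM (2356 counts) in wild-type and 137 RPKM (2612 counts) in *wlp2s*, a ratio of 1.08 (1.02 to 1.14). LOC_Os06g44620, also annotated as 4-coumarate:CoA ligase 2, had 26.7 RPKM (579 counts) in wild-type and 23.0 RPKM (513 counts) in *wlp2s*, which was 1.16-fold lower (1.03 to 1.31). LOC_Os02g46970, annotated as 4-coumarate:CoA ligase 3, had 3.66 RPKM (77.3 counts) in wild-type and 0.184 RPKM (4 counts) in *wlp2s*, which was 19.9-fold lower (7.42 to 74.4). It was the only member past the rule of size, with a difference of -1.98 on the log2(RPKM + 1) scale, which understates differences of low loci. Of all loci tested, 0.123% had a lower difference. With 4 counts in the mutant library the fold of LOC_Os02g46970 is known only within a wide range, and no member passes the rule with the filter raised to an RPKM of 5 or with a pseudocount of 5, where its difference is -0.74. With a pseudocount of 0.1 the difference is -3.73.

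The sum of the 4CL members was level between the genotypes, and the locus that was 19.9-fold lower made up little of it. The 3 members had 157 RPKM in wild-type and 160 RPKM in *wlp2s*, a ratio of 1.01 (0.962 to 1.06). Without LOC_Os02g08100 the ratio was 0.767 (0.681 to 0.861). Of the RPKM of the 5 loci annotated as 4CL, LOC_Os02g08100 took 69.6% in wild-type and 71.6% in *wlp2s*, LOC_Os06g44620 took 14.7% and 12.0%, and LOC_Os02g46970 took 2.01% and 0.0965%. A 4CL locus that is not a member, LOC_Os08g34790, had 22.5 RPKM in wild-type and 29.7 RPKM in *wlp2s*, a ratio of 1.32 (1.18 to 1.47), so that it stood below LOC_Os06g44620 in wild-type and above it in *wlp2s*. The fifth, LOC_Os08g14760, had 2.34 and 1.39 RPKM. The whole 4CL family had a ratio of 1.05 (1.01 to 1.10). Unlike the PAL and C4H sums, its counts were not whole in both libraries, with 3598.67 in wild-type and 3889 in *wlp2s*, so reads may be shared with loci outside it.

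Along the pathway, the family sums thus stood at ratios of 1.12 for PAL, 1.08 for C4H and 1.05 for 4CL, and the intervals of neighbouring steps overlap. Within each library, PAL exceeded the later steps by level. The PAL, C4H and 4CL families had 815, 40.2 and 182 RPKM in wild-type and 919, 43.3 and 191 RPKM in *wlp2s*. The order of the members by RPKM in wild-type was LOC_Os02g41650, LOC_Os02g41630, LOC_Os02g08100, LOC_Os05g35290, LOC_Os04g43760, LOC_Os05g25640, LOC_Os02g41680, LOC_Os06g44620, LOC_Os02g41670 and LOC_Os02g46970. The counting intervals of LOC_Os04g43760 and LOC_Os05g25640 overlap there, as do those of LOC_Os02g41680 and LOC_Os06g44620. In *wlp2s* the order was the same except that the PAL locus LOC_Os02g41680 stood above the C4H locus LOC_Os05g25640, and of all neighbours only LOC_Os06g44620 and LOC_Os02g41670 overlap. Spread between plants is not part of these intervals.

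**Figure D4:**
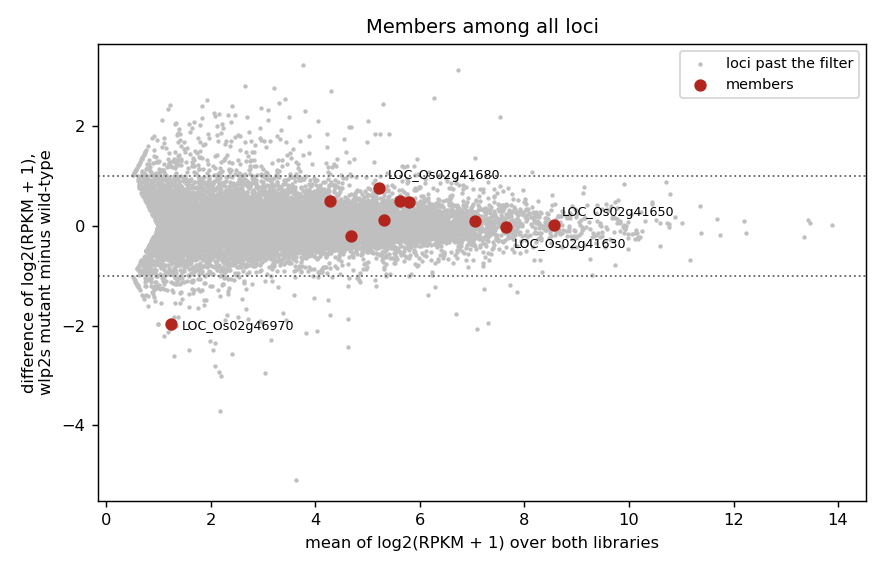
Difference of log2(RPKM + 1), *wlp2s* minus wild-type, against the mean of log2(RPKM + 1) over both libraries, with 1 grey point per locus past the filter (18639 loci) and the 10 members in red. The dotted lines mark differences of 1 and -1, and LOC_Os02g46970 is the only member beyond them, at -1.98 and at the low end of the levels.

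Upstream of PAL, the genes that supply phenylalanine showed small differences, mostly towards higher levels in *wlp2s*. The list holds enzymes of the shikimate pathway and arogenate dehydratases, the last enzymes before phenylalanine. Of its 29 loci, 23 passed the filter, none passed the rule of size in either direction, and the median log2 difference was 0.20, with 15 loci above 0 and 8 below. Against 16.1% and 15.4% of all loci tested, the counting interval lay above 1 at 7 loci and below 1 at 1, LOC_Os07g42960. This DAHP synthetase, the most abundant locus of the list in wild-type and named after its values were seen, had 148 RPKM in wild-type and 130.2 RPKM in *wlp2s*, a ratio of 0.879 (0.828 to 0.932). The largest difference was at LOC_Os02g51410, annotated as shikimate kinase 1, with 47.8 RPKM in wild-type and 81.7 RPKM in *wlp2s*, a ratio of 1.71 (1.54 to 1.90). LOC_Os04g33390, annotated as arogenate dehydratase 6, had 6.29 and 9.61 RPKM, a ratio of 1.53 (1.17 to 2.00). LOC_Os06g04280, annotated as an enolpyruvate transferase, had 41.9 and 55.4 RPKM, a ratio of 1.32 (1.20 to 1.46). Summed over the list, the ratio was 1.09 (1.06 to 1.11), beside 1.12 for the PAL family.

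Downstream of 4CL, loci listed by annotation words for the monolignol branch had a larger summed excess in *wlp2s* than any entry step. This branch makes the building blocks of lignin. The list holds no locus annotated as caffeoyl-CoA O-methyltransferase, another enzyme of the branch, and the roles of the listed loci were not tested. Of its 48 loci, 28 passed the filter, and 3 were higher and none was lower by the rule of size. The median log2 difference was 0.28, with 23 loci above 0 and 5 below. Over all loci tested, 1.79% were higher and 1.01% lower by that rule, and the median difference was 0.00. The counting interval lay above 1 at 13 loci and below 1 at 2, against 16.1% and 15.4% of all loci tested. The summed ratio was 1.36 (1.33 to 1.39). Hydroxycinnamoyl-CoA shikimate/quinate hydroxycinnamoyl transferase is the enzyme type that takes *p*-coumaroyl-CoA into this branch. LOC_Os04g56910, so annotated, had 1.15 RPKM (21 counts) in wild-type and 7.70 RPKM (144 counts) in *wlp2s*, a ratio of 6.68 (4.21 to 11.1). It is a minor locus of that annotation. The most abundant one, LOC_Os04g42250, named after its values were seen, had 98.7 and 165 RPKM, a ratio of 1.68 (1.58 to 1.78). LOC_Os10g36848, annotated as ferulic acid 5-hydroxylase 1, which acts towards syringyl lignin, had 2.43 and 7.22 RPKM, a ratio of 2.97 (2.13 to 4.24). LOC_Os09g23550, annotated as cinnamyl alcohol dehydrogenase 9, had 73.0 and 142 RPKM, a ratio of 1.94 (1.82 to 2.08). The 3 loci past the rule of size were LOC_Os04g56910, LOC_Os10g36848 and LOC_Os06g08580. The last, named after its values were seen, had 0.336 RPKM in wild-type and 1.75 RPKM in *wlp2s*.

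Chalcone synthase, which takes *p*-coumaroyl-CoA into flavonoids, was lower in *wlp2s* through 1 locus. LOC_Os11g32650, annotated as a chalcone and stilbene synthase family protein, had 28.7 RPKM (471 counts) in wild-type and 5.67 RPKM (95.5 counts) in *wlp2s*, which was 5.07-fold lower (4.04 to 6.34). Of the 8 loci so annotated, 3 passed the filter, with 1 higher and 1 lower by the rule of size and a median difference of 0.71. Their sum had a ratio of 0.331 (0.276 to 0.395), opposite in direction to the median, since LOC_Os11g32650 held 471 of the 500 counts in wild-type.

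Related acyl-CoA ligases outside the 4CL family were mixed. Of 21 such loci, 15 passed the filter and none passed the rule of size. The counting interval lay above 1 at 2 loci and below 1 at 6, against 16.1% and 15.4% of all loci tested. The median log2 difference was -0.17 and the summed ratio was 1.22 (1.19 to 1.26). The sum and the median have opposite directions, and LOC_Os04g58710, an AMP-dependent synthetase and ligase family protein, alone had 195 RPKM in wild-type and 323 RPKM in *wlp2s*, a ratio of 1.66 (1.59 to 1.73). LOC_Os10g42800 (6.56 and 3.57 RPKM) and LOC_Os05g04170 (16.0 and 9.70 RPKM), of the same annotation, were lower in *wlp2s*.

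**Figure D5:**
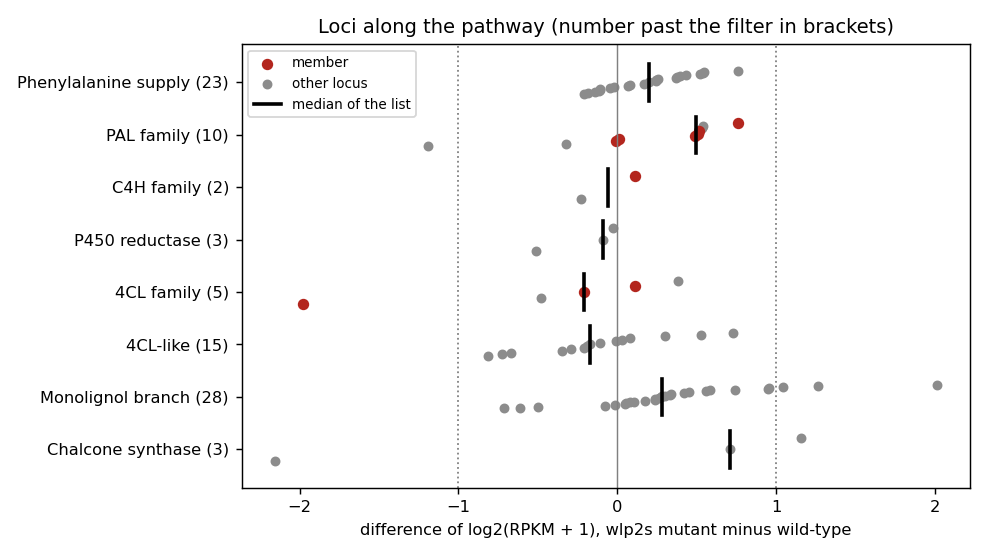
Difference of log2(RPKM + 1), *wlp2s* minus wild-type, for each locus past the filter in lists along the pathway, with members in red, other loci in grey and a black bar for the median. The dotted lines mark differences of 1 and -1, beyond which lie 3 monolignol loci on the right and LOC_Os02g46970, LOC_Os11g32650 and LOC_Os08g21670 on the left, besides 1 chalcone synthase locus on the right.

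Markers of lignifying vascular and fibre cells were low in both libraries, with higher sums in *wlp2s* that rested on a few loci. LOC_Os01g54620, LOC_Os10g32980 and LOC_Os09g25490, used as markers of secondary walls although the deposited annotation does not give them that role, had summed levels of 3.19 RPKM in wild-type and 5.28 RPKM in *wlp2s*, a ratio of 1.64 (1.28 to 2.12), and none was at 0. Of these, 2 passed the filter, and only LOC_Os01g54620 (54 and 108 counts) had an interval above 1, at 1.95 (1.39 to 2.75). The 6 loci annotated as laccase 4, 11 or 17, enzymes that polymerise lignin, had summed levels of 0.831 and 3.70 RPKM (16.5 and 76 counts), a ratio of 4.48 (2.67 to 8.50), and 2 of them had no count in wild-type. The interval lay above 1 at the 2 laccase loci that passed the filter, LOC_Os01g62490 (5.83 and 26 counts) and LOC_Os03g16610 (8 and 40 counts). The part of such cells in the PAL and monolignol values was not tested. The light-harvesting loci had a summed ratio of 0.814 (0.808 to 0.820), a median log2 difference of -0.37 and 1 locus past the rule of size, and their part in the scaling of the members was likewise not tested.

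The deposited annotation also carries gene ontology terms. Secondary metabolic process was assigned to 9 of the 10 members, against 1.70% of the 21525 loci with any term. Response to abiotic stimulus was assigned to 9 members, against 8.27% of loci, and response to stress to 8, against 13.6%. Ammonia-lyase activity was assigned to 10 loci in all, among them the 6 PAL members. The terms hold no measurement from these leaves. The members were chosen as enzymes of this pathway, so such shares describe the choice and are no result of the data.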

How the data were processed

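Leaf mRNA of 1 wild-type and 1 *wlp2s* library was sequenced by the authors. The authors deposited estimated counts per transcript model (36450 models), as raw values that include fractions. RPKM values were deposited beside them, and with total counts as depth these gave whole-number lengths for 100% of models. TopHat, Cufflinks and Cuffdiff are listed in the submitters' processing notes. The counting tool, genome build and strand setting are not given in the sources used here. A second table holds the authors' fold changes and P-values, and neither these nor its 4 per-library columns were used. Their headings read ZH11 and wlp1, and it was not settled if the latter is *wlp2s*.

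Models of a locus were summed (Python 3.11.15, numpy 2.4.6, pandas 2.3.3, scipy 1.17.1, with figures from matplotlib 3.10.9). The difference of log2(RPKM + 1) is mutant minus wild-type. Counts were rounded to whole numbers for the exact 95% intervals of ratios, and a level of 0 was set against a floor of 3 counts. Reads carry no molecular identifiers, so intervals and floors cover counting error only. The calculation was tested on simulated data.

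The members and lists were chosen with earlier results of these data known, and their search words were adapted to the wording of the annotation. Named genes were all members, other entry loci that reach an RPKM of 5, and up to 3 loci per list with the largest difference at such a level. Entry loci below that level, marker loci, single abundant loci of other lists and a monolignol locus of low level were also named, after their values were seen. Other scalings, pseudocounts, filters, size limits and models were tried. Promoters and proteins of the members were not analysed here.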

Additional observations from a re-analysis of the deposited data

How the results depend on the processing

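No paired analysis was possible because each genotype has 1 library, and for the same reason no replicate could be left out. Median-ratio and TMM-style scaling differed from scaling to total counts by 0.0019 and 0.0027 on the log2 scale and changed no direction of the members. None of 50 alternative values of single members had the opposite direction. The largest move was at LOC_Os02g46970, whose difference of -1.98 became -3.73 with a pseudocount of 0.1 and -0.74 with a pseudocount of 5. The PAL ratio of 1.09 was 1.13 with the most abundant model of each locus, 1.12 over all loci of the family and, in an alternative chosen after seeing the data, 1.48 without the highest loci. The 4CL ratio of 1.01 was 0.767 without its highest locus, also chosen after seeing the data, and both ratios stayed within their intervals as sums of RPKM. The number of members past the rule of size was 1, and became 0 with a pseudocount of 5, 0 with a filter at an RPKM of 5 and 2 with a limit equal to a 1.5-fold difference. Over all loci the number was 522, and became 1276 with a pseudocount of 0.1, 120 with a pseudocount of 5, 269 with a filter at an RPKM of 5 and 2005 with the 1.5-fold limit. These counts differ because the pseudocount, filter or limit itself differs.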
